A study of Mus musculus with 36 samples.

Results

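Striatum was set against cortex in untreated MBP29-hα-syn mice, all male, a model of multiple system atrophy (MSA), which takes 6 of the 36 poly(A) RNA-seq libraries of the series: 3 from striatum and 3 from cortex, picked by the group in their titles. These animals, called MSA mice here, express human α-synuclein from a myelin basic protein promoter, which drives transgenes in oligodendrocytes. As the reference for direction, 2 striatum and 3 cortex libraries of male control mice without the transgene were used, named CTRL in the labels and wild type in the protocol. All of these animals received placebo, standard AIN-76A chow without the CSF1R inhibitor PLX5622, beginning at 4 weeks of age and lasting 12 weeks, and the tissue was archived frozen. No label ties a library to an animal or tells whether tissue was pooled. The spread behind each p-value is therefore that between libraries, which may be technical in part.

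Striatum is the main input nucleus of the basal ganglia. Nearly all of its neurons are GABAergic projection neurons that receive glutamate from cortex and dopamine from the midbrain. They form a direct pathway, whose cells carry the D1 dopamine receptor, and an indirect pathway, whose cells carry the D2 receptor. Cortex is built mostly of layered glutamatergic neurons, with GABAergic interneurons among them. The regions descend from different embryonic territories, the subpallium for striatum and the pallium for cortex, and keep different transcription factors in the adult. Striatum is also crossed by bundles of myelinated axons. In multiple system atrophy α-synuclein gathers in oligodendrocytes, and striatum is among the regions that degenerate.

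Counts in genes came to 6.15, 6.25 and 7.40 M in MSA striatum, against 5.87 to 7.46 M in MSA cortex, and to 7.59 and 11.27 M in control striatum, against 6.49 to 7.72 M in control cortex. Some libraries stood apart from their group. In library 1 of MSA striatum the 17 markers of cortical glutamatergic neurons summed to 1752 CPM (counts scaled to a library total of 1e6). In libraries 2 and 3 they summed to 518 and 466 CPM. Other cortical lists were mixed: sums of pallial transcription factors and deep-layer genes were highest in library 1 of the group, those of upper-layer and interneuron genes lowest. The deep-layer sum was itself higher in MSA striatum (933 to 1143 CPM) than in MSA cortex (525 to 619 CPM). A high value of it is thus not cortex-like. Library 3 of MSA striatum held 3984 CPM of 13 choroid plexus markers, against 70.4 and 466 CPM in libraries 1 and 2. Library 3 of MSA cortex held 4247 CPM of 24 markers shared by striatal projection neurons, against 3102 and 3114 CPM in its libraries 1 and 2. It held 458 CPM of 7 indirect pathway markers, against 244 and 227 CPM, while its sum of striosome and matrix markers lay between the others. In library 3 of control cortex 60.1% of the header total was assigned to genes, against 77.7 and 82.6% in the other control cortex libraries, and the cortical markers summed to 2704 CPM, against 4361 and 4692 CPM. Part of the list counts that these libraries move are given with and without them below, as are some single genes. Other list counts, given with all libraries only, can move too. Without library 1 of MSA striatum the receptor genes Grm5 (log2 1.23 ± 0.27 (SE), adjusted p = 0.0194) and Htr1a (-3.01 ± 0.57, adjusted p = 0.00765) also passed, for example. Pairs of libraries within a group differed by 7.58 to 132.9 units of chi-square per degree of freedom, so none was a copy of another.

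Of 15092 genes tested, 952 (6.31%) passed an adjusted p under 0.05 between striatum and cortex of MSA mice by edgeR's quasi-likelihood F test. Of these 488 (3.23%) were higher in striatum and 464 (3.07%) were lower, with median log2 changes of 1.70 and -1.50. Of the higher genes 185 changed by at least 2 on the log2 scale, as did 143 of the lower ones. Library values of striatum and cortex did not overlap for 487 of the 488 higher genes and for all 464 lower genes, against 27.9% of all genes tested. Protein-coding genes made up 463 of the higher and 449 of the lower set. A log2 change of at least 1 either way was reached by 818 genes (5.42%) in MSA mice. The lists described below hold 97 of the higher and 46 of the lower genes.

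The genes of striatal projection neurons were higher in MSA striatum throughout. All 24 genes of the shared list passed, with a median log2 change of 2.87 beside 0.03 over all genes tested, and their libraries did not overlap in any case. In bulk tissue, more or fewer cells of a type and more or less RNA per cell cannot be told apart, here and in all that follows. Ppp1r1b (chromosome 11, 98348406 to 98357796), which encodes DARPP-32, the phosphoprotein that integrates dopamine and cAMP signals, had 2187, 2659 and 3027 CPM in MSA striatum, against 199.4, 194 and 413 CPM in MSA cortex. The groups lie far apart, and cortex library 3 is the highest of its group. The log2 change was 3.30 ± 0.34 (SE, adjusted p = 0.000262). Pde10a, a phosphodiesterase that degrades cAMP and cGMP, had 1278, 2541 and 2390 CPM in MSA striatum, against 156, 128 and 208 CPM in MSA cortex. Library 1 is the lowest of the striatal group for both of these genes. Rgs9, which speeds the shut-off of G proteins behind dopamine receptors, changed by 3.75 ± 0.32 on the log2 scale, and Rasgrp2, an activator of Rap signalling, by 2.99 ± 0.27. At the low end of the list were the cannabinoid receptor gene Cnr1 (log2 1.06 ± 0.24) and the kinase gene Dclk3 (1.26 ± 0.29), both also transcribed in cortex at 164 CPM or more for Cnr1 and 52.4 CPM or more for Dclk3.

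Both output pathways were represented. Of 9 direct pathway genes 6 were higher and none lower in MSA striatum, and of 7 indirect pathway genes 6 were higher and none lower. Drd1 (chromosome 13, 54051184 to 54054780), the D1 receptor, had 199.5, 232 and 258 CPM in MSA striatum, against 23.8, 11.8 and 32.2 CPM in MSA cortex, a log2 change of 3.36 ± 0.31 (adjusted p = 0.000193). Tac1, the precursor of substance P, had 135, 107 and 125 CPM in MSA striatum, against 16.5, 19.6 and 27.7 CPM in MSA cortex (2.53 ± 0.31, adjusted p = 0.000773). Neither pair of groups overlaps. Pdyn, the prodynorphin gene, did not pass: it had 35.9, 106 and 121 CPM in MSA striatum, against 25.6, 26.1 and 47.6 CPM in MSA cortex, where library 1 of striatum lies among the cortical values (log2 1.42 ± 0.42, adjusted p = 0.0735). Without that library Pdyn passed (1.77 ± 0.33, adjusted p = 0.00711). Slc35d3, a transporter known to guide D1 receptor traffic in mouse, changed by 4.10 ± 0.30. The list's other non-passing members, Sfxn1 (0.21 ± 0.24) and Eya1 (-0.66 ± 0.25), lay near 0 or below it.

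On the indirect side, Drd2 (chromosome 9, 49340662 to 49407214), the D2 receptor, had 193, 312 and 299.6 CPM in MSA striatum, against 8.19, 8.01 and 28.7 CPM in MSA cortex, a log2 change of 4.17 ± 0.47 (adjusted p = 0.000494). Cortex library 3 again stands above its group. Penk (chromosome 4, 4133536 to 4138815), the proenkephalin gene, had 700.4, 1158 and 1330 CPM in MSA striatum, against 75.7, 74.3 and 203 CPM in MSA cortex (3.19 ± 0.42, adjusted p = 0.00132). Adora2a, the adenosine receptor that opposes D2 signalling, had 462, 652 and 586 CPM in MSA striatum, against 28.2, 18.7 and 65.7 CPM in MSA cortex (3.93 ± 0.44). The orphan receptors Gpr6 and Gpr52 changed by 3.41 and 2.58. Grik3, a kainate receptor subunit, was the member that did not pass (0.51 ± 0.37, adjusted p = 0.53). On the per-length scale of the deposited TPM, MSA striatum held 1945 ± 412 TPM of Ppp1r1b, 1224 ± 431 of Penk, 322 ± 71.5 of Adora2a, 258 ± 75.9 of Drd2, 172 ± 14.1 of Tac1 and 97.4 ± 17.6 of Drd1 (SD, n = 3). In that order Adora2a and Drd2 do not differ beyond their spread, while Drd2 and Drd1 lie apart in TPM. In CPM they overlap, with 199.5, 232 and 258 for Drd1 beside the Drd2 values above. The TPM order of Drd2 and Drd1 thus rests on the 1 transcript length set for each gene, 1539 and 3478 bases.

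Dopamine signalling reached beyond these receptors. Of 21 genes of dopamine and cAMP signalling 12 were higher and none lower in MSA striatum, with a median of 1.07. They included Adcy5, the striatal adenylyl cyclase (2.80 ± 0.43), the G protein subunit genes Gnal (1.58 ± 0.24) and Gng7 (2.94 ± 0.29), and the phosphodiesterase genes Pde1b (2.68 ± 0.27) and Pde7b (2.5 ± 0.34). The regulatory kinase subunit Prkar2b changed least (0.85 ± 0.17). None of the 3 tested transcripts of dopamine axons passed. Their cell bodies lie in the midbrain, and the 4 genes listed, tested or not, summed to 12.5, 19.7 and 15.9 CPM in MSA striatum, against 10.4, 7.15 and 10.2 CPM in MSA cortex.

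The RefSeq promoters (build GRCm38.p6, the same assembly as mm10) of 4 genes at the ends of the comparison are shown because Drd1 and Tac1 mark the direct pathway and Slc30a3 and Grm2 are among the genes lowest in striatum; they were picked after their values were seen. Each is the 250 bases before the transcript start, 5′ to 3′ on the gene's strand, with matches to the motifs searched in capitals.
Drd1 (chr13:54054781-54055030, minus strand): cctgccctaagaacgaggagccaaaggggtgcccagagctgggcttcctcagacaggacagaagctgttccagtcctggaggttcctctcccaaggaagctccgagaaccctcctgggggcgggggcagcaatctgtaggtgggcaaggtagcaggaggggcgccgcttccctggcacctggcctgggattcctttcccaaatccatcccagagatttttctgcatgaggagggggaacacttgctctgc
Tac1 (chr6:7554811-7555060, plus strand): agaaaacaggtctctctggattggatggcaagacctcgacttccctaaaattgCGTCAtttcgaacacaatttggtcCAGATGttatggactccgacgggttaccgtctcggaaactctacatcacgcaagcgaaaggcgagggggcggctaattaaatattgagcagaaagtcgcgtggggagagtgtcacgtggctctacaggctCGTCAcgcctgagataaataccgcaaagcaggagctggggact
Slc30a3 (chr5:31093528-31093777, minus strand): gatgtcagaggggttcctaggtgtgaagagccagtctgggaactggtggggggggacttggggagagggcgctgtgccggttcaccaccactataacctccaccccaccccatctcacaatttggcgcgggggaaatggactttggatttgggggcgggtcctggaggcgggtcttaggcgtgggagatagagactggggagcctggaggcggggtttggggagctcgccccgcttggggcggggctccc
Grm2 (chr9:106656110-106656359, minus strand): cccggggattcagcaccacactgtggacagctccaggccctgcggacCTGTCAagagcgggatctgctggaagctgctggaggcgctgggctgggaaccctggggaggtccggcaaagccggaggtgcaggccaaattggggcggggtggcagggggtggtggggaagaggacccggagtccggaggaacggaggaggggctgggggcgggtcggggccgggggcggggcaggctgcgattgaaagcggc
The motifs were the cAMP response element TGACGTCA, its core TGACG, which the full element contains, the E-box CAGATG of NeuroD-type factors, the MEIS site TGACAG, the EGR site GCGTGGGCG and the TATA box TATAAA, each on both strands. The Tac1 window holds 2 cores and 1 E-box, the Grm2 window 1 MEIS site, and the windows of Drd1 and Slc30a3 none of these letters. A promoter that starts within 100 bases of the deposited transcript start was found for 327 of the higher, 329 of the lower and 11080 of all genes tested. The core occurs in 19.6% of the promoters of higher genes and 21.3% of those of lower genes, against 26.8% of all. The MEIS site occurs in 15.0% of the promoters of higher genes and 12.2% of those of lower genes, against 13.8% of all, and the E-box in 11 and 12.2%, against 9.90%. The TATA box occurs in 7.03 and 7.29%, against 6.34%, the full cAMP element in 1.83 and 2.74%, against 2.80%, and the EGR site in 0.612 and 0.608%, against 1.06%. The core is thus less frequent in both sets than in all promoters. The EGR site was found in only 2 promoters of each set, too few to compare. These shares were not tested and describe letters only.

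Transcription factors of the subpallium were higher in MSA striatum. Of 19 tested 13 were higher, with a median of 2.12, and 1 was lower. Six3, a homeobox factor needed for D2-type neurons in mouse, had 65.4, 155 and 141 CPM in MSA striatum, against 5.85, 5.45 and 12.5 CPM in MSA cortex (log2 3.93 ± 0.41, adjusted p = 0.000299). Isl1 (3.61 ± 0.50) and Ebf1 (3.18 ± 0.55), which act in direct pathway neurons, and Sp9 (2.37 ± 0.41), which acts in indirect pathway neurons, were likewise higher. Foxp1, a partner of Foxp2 in projection neurons, changed by 1.98 ± 0.27. Foxp2, the forkhead factor linked to vocal learning, had 74.3, 73.1 and 85.5 CPM in MSA striatum, against 8.33, 11.6 and 13.7 CPM in MSA cortex (2.80 ± 0.24). Dlx1 was the exception. It encodes a homeobox factor that adult cortical interneurons keep, and it had 12.5, 10.7 and 9.05 CPM in MSA striatum, against 27.5, 25.7 and 25.2 CPM in MSA cortex (-1.27 ± 0.22, adjusted p = 0.00469).

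Retinoic acid signalling overlaps with these factors. Of 14 genes of the retinoid pathway 4 were higher and 1 was lower. The receptors Rarb (3.45 ± 0.39) and Rxrg (3.54 ± 0.39), both known to be required for normal striatal development or function in mouse, led the list. Rxrg had 152, 143 and 147 CPM in MSA striatum, against 6.58, 10.1 and 21.4 CPM in MSA cortex. The binding protein genes Crabp1 (3.22 ± 0.57) and Rbp4 (1.33 ± 0.35) were also higher. Aldh1a2, a retinoic acid-making enzyme that meninges also express, was lower (-2.72 ± 0.66): it had 0.325, 2.08 and 1.49 CPM in MSA striatum, against 15.4, 7.15 and 3.89 CPM in MSA cortex. Its call ended without MSA cortex library 1 or 2 or any 1 of the striatum libraries (adjusted p 0.0559 to 0.129).

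Cholinergic interneurons, large striatal cells whose acetylcholine shapes dopamine release, were marked by 5 of 7 genes that were higher and none that was lower, with a median of 2.53. Chat, the acetylcholine-making enzyme, had 19.2, 47.0 and 51.9 CPM in MSA striatum, against 5.85, 2.21 and 8.98 CPM in MSA cortex (2.79 ± 0.46, adjusted p = 0.00426). The vesicular transporter Slc18a3 (2.57 ± 0.48), the choline transporter Slc5a7 (2.21 ± 0.42) and the vesicular glutamate transporter Slc17a8 (2.53 ± 0.49) followed. Library 1 of striatum is the lowest of its group for all 5. The 5 genes of GABA synthesis and transport did not pass, and 4 of them had positive changes. Gad1, which makes GABA, had 368, 639 and 749 CPM in MSA striatum, against 343, 254 and 371 CPM in MSA cortex, where striatum library 1 falls within the cortical range (0.87 ± 0.31, adjusted p = 0.136). Without library 3 of control cortex, which shares the estimate of spread, 4 of the 5 were called higher. Without striatum library 1 there were 2, Gad1 among them (1.10 ± 0.29, adjusted p = 0.0405), and by DESeq2 1.

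Genes of cortical glutamatergic neurons ran the other way. All 17 had negative log2 changes, with a median of -2.47, and 8 passed as lower in MSA striatum. Slc17a7, the vesicular glutamate transporter of cortical neurons, had 670.4, 77.1 and 43.6 CPM in MSA striatum, against 1838, 1981 and 1829 CPM in MSA cortex. The groups do not overlap, but library 1 of striatum lies far above its fellows, and the gene missed the threshold (-2.84 ± 0.81, adjusted p = 0.0599). Tbr1, a factor of deep-layer neurons, had 103, 2.56 and 2.16 CPM in MSA striatum, against 224, 193 and 163 CPM in MSA cortex (-2.43 ± 1.10, adjusted p = 0.257). Without library 1 both passed, Slc17a7 at -4.97 ± 0.48 (adjusted p = 0.000151) and Tbr1 at -6.36 ± 0.74 (adjusted p = 0.000459). Without library 1 of MSA striatum 16 of the 17 were lower, with a median of -4.0, against 4 without striatum library 2, 5 without striatum library 3 and 5 without MSA cortex library 2. Why library 1 holds these markers was not tested.

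The genes that passed with all libraries included Bhlhe22 (chromosome 3, 18054325 to 18057514), a helix-loop-helix factor that patterns cortical areas, with 8.78, 4.32 and 2.70 CPM in MSA striatum, against 80.7, 93.3 and 71.4 CPM in MSA cortex (-3.96 ± 0.38, adjusted p = 0.000244). Slc30a3 (chromosome 5, 31086106 to 31093527), the transporter that loads zinc into synaptic vesicles, had 24.9, 2.08 and 2.03 CPM in MSA striatum, against 215.5, 194 and 179 CPM in MSA cortex (-4.35 ± 0.79, adjusted p = 0.00685). Mef2c, an activity-regulated factor, fell by 1.85 on the log2 scale (SE 0.25), and its striatal level stayed at 109.5 CPM or more. Neurod1, a neuronal differentiation factor, had 0.976, 0.48 and 0.135 CPM in MSA striatum, against 19.3, 21.6 and 7.77 CPM in MSA cortex (-4.93 ± 0.89). Rtn4r, the Nogo receptor, changed by -2.73 ± 0.61 and Nrn1, a neurite growth factor, by -2.90 ± 0.56. Of 10 pallial transcription factors 3 were lower (Bhlhe22, Emx1 and Lhx2) and 1, Pou3f1, was higher (1.36 ± 0.34). Leaving out any 1 of the 3 MSA cortex libraries, or striatum library 2 or 3, ended the calls of Emx1 and Lhx2 (adjusted p 0.0501 to 0.0638 for Emx1 and 0.067 to 0.122 for Lhx2). Without striatum library 1, 9 of the 10 pallial factors were lower. Pou3f1 lost its call without any 1 of 7 libraries, among them all 3 of MSA cortex and striatum libraries 2 and 3 (adjusted p 0.0547 to 0.153).

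Layer markers did not move as 1 group. Of 14 upper-layer genes 2 were lower, Cux2 (-2.33 ± 0.31) and Rasgrf2 (-2.87 ± 0.30), and 1, the channel subunit Kcnip2, was higher (1.38 ± 0.23). Cux2 had 47.6, 49.6 and 40.5 CPM in MSA striatum, against 254, 238 and 204 CPM in MSA cortex. Of 16 deep-layer genes 6 were higher in striatum and 1 was lower. The higher ones were Foxp2, Syt6 (2.77 ± 0.45), Pcp4 (2.15 ± 0.43), Rbp4, Tle4 (1.17 ± 0.23) and Crym (0.99 ± 0.23). Foxp2 also stands in the subpallial list, Rbp4 in the retinoid list and Crym in the list of regionally varying astrocyte genes. Tshz2 was the lower one (-1.45 ± 0.33). The deep-layer count was less firm: 2 to 4 were higher and none was lower without any 1 of the MSA cortex libraries or of striatum libraries 2 and 3, and 4 were lower without striatum library 1. Without control cortex library 3, 4 of the upper-layer genes were lower.

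Interneuron genes of cortex were partly lower in MSA striatum: 5 of 16 passed as lower and none as higher. Vip, a peptide of cortical interneurons, had 7.80, 0.16 and 0 CPM in MSA striatum, against 31.0, 39.7 and 25.3 CPM in MSA cortex (-3.62 ± 0.94, adjusted p = 0.0413). Cck, a peptide that cortical pyramidal neurons also express, had 127, 31.8 and 12.6 CPM in MSA striatum, against 263, 333 and 292 CPM in MSA cortex (-2.37 ± 0.60). Without striatum library 1 Cck changed by -3.75 ± 0.38. Htr3a, Crh and Tac2 passed as well, all under 11 CPM in every MSA library. The count rests on single libraries: none of the 16 was lower without striatum library 2 or 3 or MSA cortex library 2, and 1 was without MSA cortex library 1 or 3. Sst and Pvalb, which mark interneurons found in both regions, did not pass. Sst had 138, 144 and 184 CPM in MSA striatum, against 164, 196 and 209 CPM in MSA cortex. Of 18 pan-neuronal genes 4 were lower, the vesicle protein Syp (-1.28 ± 0.26), Sncb (-1.55 ± 0.34), which encodes β-synuclein, Stmn2 (-1.39 ± 0.27) and Elavl4 (-1.69 ± 0.29), and none was higher. The lower ones numbered 11 without control cortex library 3, 2 without striatum library 2 and 1 without striatum library 3.

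Neurotransmitter receptors and channels divided by gene. Among 24 glutamate receptor subunits Grik2 (1.30 ± 0.23) and Grm4 (1.90 ± 0.50) were higher and Grik1 (-1.89 ± 0.33) and Grm2 (-3.54 ± 0.52) lower. Grm2 (chromosome 9, 106644534 to 106656109), a presynaptic metabotropic receptor, had 6.02, 5.92 and 5.00 CPM in MSA striatum, against 81.9, 49.4 and 67.8 CPM in MSA cortex (adjusted p = 0.00225). Among 14 GABA receptor subunits the extrasynaptic subunit gene Gabrd (0.94 ± 0.21) and Gabrg3 (1.59 ± 0.38) were higher, and 2 were lower, among them Gabra3 (-1.62 ± 0.38). These 3 calls are not firm, since each ended in 5 or 6 of the fits that left out 1 library, with adjusted p of 0.0504 to 0.134. Without control cortex library 3, 3 of the 14 were higher and 6 lower. Grm4 likewise lost its call in 7 such fits (adjusted p 0.0665 to 0.166). Of 20 serotonin and acetylcholine receptors 3 were higher and 3 lower. The inhibitory serotonin receptors Htr1b (2.85 ± 0.31) and Htr1d (2.96 ± 0.32) and the muscarinic receptor Chrm4 (1.65 ± 0.30) were the higher ones, and Htr5a (-1.37 ± 0.30), Htr7 (-1.94 ± 0.36) and the muscarinic receptor Chrm3 (-1.73 ± 0.44) the lower ones, of which 1 was left without MSA cortex library 3 or striatum library 2 or 3. Htr1b had 22.4, 37.6 and 29 CPM in MSA striatum, against 3.22, 3.92 and 5.23 CPM in MSA cortex.

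Among 27 potassium channel genes 6 were higher and 4 lower. The higher ones included the auxiliary subunit Kcnab1 (2.33 ± 0.24), the leak channel Kcnk2 (1.56 ± 0.19), Kcnip2, and the inward rectifier Kcnj2 (1.36 ± 0.25), which sets the resting potential of projection neurons. The lower ones included the G protein-gated channels Kcnj3 (-1.60 ± 0.28), Kcnj6 (-2.79 ± 0.45) and Kcnj9 (-1.21 ± 0.30). Kcnj6 had 7.32, 3.36 and 2.43 CPM in MSA striatum, against 30.0, 28.4 and 32.4 CPM in MSA cortex, with no overlap. Without control cortex library 3, 8 of the channels were higher and 8 lower. Among 17 neuropeptide and peptide receptor genes 4 were higher, Penk, Tac1, the κ opioid receptor Oprk1 (1.69 ± 0.29) and the substance P receptor Tacr1 (2.55 ± 0.54), and 5 were lower. The lower ones included Cartpt (-4.03 ± 0.55), Adcyap1 (-4.75 ± 0.86) and Sstr3 (-2.54 ± 0.46). None of 16 immediate early genes passed, and their sums overlapped, with 823 to 1044 CPM in MSA striatum and 723 to 1377 CPM in MSA cortex. Without striatum library 1 their member Nr4a2 passed as lower (-4.10 ± 0.37, adjusted p = 0.00011).

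Genes outside the lists were named by the size of their change. The gene with the largest positive change by that rule was Cd4 (chromosome 6, 124864693 to 124888200), best known as a T-cell co-receptor, with 69.9, 94.9 and 129 CPM in MSA striatum, against 2.49, 3.24 and 5.36 CPM in MSA cortex (4.73 ± 0.45, adjusted p = 0.000244). Serpina9, a serine protease inhibitor of the serpin family (4.48 ± 0.52), Onecut2, a homeobox factor (4.33 ± 0.38), Syndig1l, also called capucin and enriched in mouse striatum (4.33 ± 0.41), and Nexn, an actin-binding protein (4.24 ± 0.53), followed together with Lrrc10b (4.47 ± 0.64) of the projection neuron list. Six3os1 (4.34 ± 0.42) is a noncoding RNA that neighbours Six3. No source used here tells if strand entered the counting, and its reads cannot be told apart from those of an overlapping gene. Among the lowest, beside Slc30a3, Bhlhe22, Grm2 and Emx1, were Igfn1 (-3.78 ± 0.53), the hexokinase-like gene Hkdc1 (-3.40 ± 0.46), the oxytocin receptor gene Oxtr (-3.39 ± 0.60) and Bdnf (-3.26 ± 0.48). Bdnf, a neurotrophin that cortical axons deliver to striatum, had 5.20, 1.92 and 1.62 CPM in MSA striatum, against 19.5, 27.8 and 36.7 CPM in MSA cortex.

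Among glia, part of the myelin genes were higher in MSA striatum. Of 28 genes of myelinating oligodendrocytes 10 passed as higher, 18 did not pass and none was lower, with a median of 1.22, and 23 had library values that did not overlap. Mbp, the structural protein whose promoter also drives the transgene, had 5052, 3414 and 2619 CPM in MSA striatum, against 910, 1525 and 2189 CPM in MSA cortex. The groups do not overlap, but striatum library 3 and cortex library 3 nearly meet, and the gene missed the threshold (1.27 ± 0.35, adjusted p = 0.0555). Those that passed included Hapln2, a matrix protein of nodes of Ranvier (1.75 ± 0.25, adjusted p = 0.00213), Trf, the iron carrier transferrin (1.43 ± 0.28), the transcription factor genes Nkx6-2 (1.24 ± 0.25) and Myrf (1.51 ± 0.38), and Mag (1.32 ± 0.35) and Mal (1.47 ± 0.34).

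The myelin list summed to 12870, 10460 and 7627 CPM in MSA striatum, against 2779, 4246 and 6148 CPM in MSA cortex, and to 16770 and 15920 CPM in control striatum, against 3165, 4376 and 4963 CPM in control cortex. In control mice 24 of the 28 passed as higher, with a median of 2.02. The regional difference was smaller in MSA than in control mice at an unadjusted p under 0.05 for 9 of the 28, beside 2.71% of all genes in either direction, and none of them passed the adjustment. The MSA count depends on the libraries: it was 23 of 28 without control cortex library 3 and 21 by DESeq2, but 6, 1 and 7 without MSA striatum library 1, 2 and 3, 3 and 2 without MSA cortex library 1 and 2, 6 without control cortex library 2, and 6 and 5 without control striatum library 1 and 2. In none of these fits was a gene of the list lower. Library 1, which held cortical markers, is the one with most myelin.

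Cells of the lineage before myelination differed less. Of 19 genes of oligodendrocyte precursors and new oligodendrocytes 2 were higher, Bcas1 (1.37 ± 0.34), which marks newly forming oligodendrocytes, and Cacng4, an AMPA receptor auxiliary subunit (2.06 ± 0.32), and none was lower. Bcas1 lost its call in 8 fits that left out 1 library (adjusted p 0.0563 to 0.138), and 4 genes were higher without control cortex library 3. Cacng4 had 99.5, 115 and 123 CPM in MSA striatum, against 19.0, 26.7 and 35.5 CPM in MSA cortex. The precursor list summed to 1369 to 1668 CPM in MSA striatum, against 1147 to 1349 CPM in MSA cortex. Its median log2 change was 0.03, and 10 of the 19 changes were positive.

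None of the 20 astrocyte genes passed in MSA mice by edgeR or DESeq2, and 19 had negative changes, with a median of -0.34. The list summed to 13930, 12580 and 11510 CPM in MSA striatum, against 14570, 16000 and 17310 CPM in MSA cortex, with no overlap. Without MSA striatum library 1 and control cortex library 3, 9 of the 20 were lower and 1 was higher. Gfap, the intermediate filament of reactive astrocytes, had 527, 276 and 179.8 CPM in MSA striatum, against 293.5, 241.5 and 421 CPM in MSA cortex. Its groups overlap, and the change was 0.05 ± 0.36 (adjusted p = 0.976). Among 12 genes known to vary between astrocytes of different regions, Thbs4, a synapse-promoting thrombospondin (2.91 ± 0.53), Unc13c (1.99 ± 0.29) and Crym, a striatal astrocyte marker in mouse, were higher. Chrdl1, a bone morphogenetic protein antagonist of upper-layer cortical astrocytes in mouse (-1.79 ± 0.36), and Mfge8 (-0.85 ± 0.23) were lower. Mfge8 lost its call without striatum library 1 (-0.78 ± 0.26, adjusted p = 0.1) and Chrdl1 without striatum library 3 (adjusted p = 0.0594). Crym lost its call in 5 fits that left out 1 library (adjusted p 0.0635 to 0.15). Unc13c had 325, 237 and 237 CPM in MSA striatum, against 61.0, 63.0 and 77.9 CPM in MSA cortex.

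Microglial genes did not differ detectably between the regions. None of 26 homeostatic microglia genes passed in MSA mice by edgeR or DESeq2, their median was 0.05, and the library values overlapped for all 26. Csf1r, the receptor on which microglia depend, had 121, 140.2 and 136 CPM in MSA striatum, against 101.5, 112 and 166 CPM in MSA cortex (0.08 ± 0.29, adjusted p = 0.945). The list summed to 1261, 963 and 946 CPM in MSA striatum, against 772, 1040 and 1309 CPM in MSA cortex. Of 18 genes of disease-associated microglia 1 was higher, the lipoprotein lipase gene Lpl (1.24 ± 0.32), which neurons also express, and its call ended in 5 fits that left out 1 library (adjusted p 0.0619 to 0.217). None of 18 interferon response genes and none of 13 MHC genes passed by edgeR, and DESeq2 called 1 MHC gene higher.

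Complement gave 2 higher genes of 16. C4b, the classical pathway component that reactive astrocytes and oligodendrocytes can express, had 162, 154 and 117 CPM in MSA striatum, against 45.6, 33.2 and 39.4 CPM in MSA cortex (1.88 ± 0.25, adjusted p = 0.00145). The groups are well apart. The control libraries had 54.0 and 45 CPM of C4b in striatum, against 10.2, 5.70 and 5.70 CPM in cortex. C4b was the only 1 of 20 reactive astrocyte genes that passed. Cd59a, an inhibitor of the membrane attack complex, was also higher (2.02 ± 0.41). Microglial C1qa had 109, 65.9 and 67.4 CPM in MSA striatum, against 50.4, 99.1 and 91.0 CPM in MSA cortex, and overlapped. Adamts4, a matrix protease gene that oligodendrocytes express, was the only brain matrix gene of 11 that passed (1.4 ± 0.25).

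Markers of meninges and choroid plexus varied widely between libraries, and vessel markers did not pass the threshold by edgeR. None of 17 endothelial and none of 11 pericyte and smooth muscle genes passed by edgeR, while DESeq2 called 1 pericyte gene lower. Of 16 meningeal fibroblast genes 3 were lower in MSA striatum, Ptgds, a prostaglandin synthase (-2.55 ± 0.58), and the transporters Slc6a13 (-2.16 ± 0.58) and Slc22a6 (-3.54 ± 0.83), and cortex library 1 held the most, with a sum of 1615 CPM against 591 and 639 CPM in the other cortex libraries. Without that library, or without striatum library 2, none of the 16 passed. Without striatum library 3 these 3 genes lost their calls as well, and 1 other member passed. Choroid plexus genes had positive changes in all 13 cases, yet only the chloride channel gene Clic6 passed (3.41 ± 0.86, adjusted p = 0.0362). Ttr, the transthyretin gene, had 50.4, 374 and 3426 CPM in MSA striatum, against 43.9, 31.3 and 224 CPM in MSA cortex. The median of 3.41 fell to 0.89 with no call without striatum library 3, and 9 of 13 were called without striatum library 1. In control mice the list ran the other way: 3 of 13 changes were positive, the median was -1.07 and none passed by edgeR. The sums there overlapped, with 92.8 and 163.7 CPM in control striatum, against 585.6, 23.7 and 185.3 CPM in control cortex. Control cortex library 1 is the highest by far, and control cortex library 2 lies below the control striatum libraries. The regional change differed between the genotypes at an unadjusted p under 0.05 for 7 of 13, and for none after adjustment. Of 11 ependymal genes 4 were higher, led in level by Foxj1, the master factor of motile cilia (1.67 ± 0.41), while 1 was higher without striatum library 2 or 3 or MSA cortex library 1, and none without MSA cortex library 2. The other 3, Ccdc153 (5.36 ± 1.08), Hydin (3.28 ± 0.79) and Ak7 (4.97 ± 1.29), belong to motile cilia and stayed under 8 CPM in every MSA library. The thalamic marker Prkcd was also higher (2.39 ± 0.61), with 22.1, 126 and 50.8 CPM in MSA striatum, against 15.4, 6.3 and 16.6 CPM in MSA cortex, and its call ended in 7 fits that left out 1 library (adjusted p 0.0574 to 0.203). The part of neighbouring tissue in these values was not tested.

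The remaining lists gave few calls. Of 7 genes that mark striosome or matrix compartments of striatum, Kremen1 (1.08 ± 0.28) and Id4 (1.31 ± 0.21) were higher and Gda (-1.30 ± 0.21) was lower. Of 5 border-associated macrophage genes Cd163, a haemoglobin scavenger receptor, was higher (2.09 ± 0.49). Of 11 genes of subventricular progenitors and neuroblasts the lower one was Dlx1. Of 14 heat shock genes Hspa1b, an inducible chaperone gene, was lower (-3.21 ± 0.77). Kremen1, Cd163 and Hspa1b each lost the call in 4 to 6 fits that left out 1 library (adjusted p 0.0667 to 0.194). None of 7 septal and pallidal and none of 8 hippocampal markers passed by edgeR; DESeq2 called 1 of the 7 lower, and 2 of the 8 higher and 1 lower.

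The control mice share no library with the MSA comparison, only the estimate of spread. Control striatum and cortex did not overlap for 41.5% of all genes tested. With 2 striatum libraries, against 3 in MSA mice, groups separate more easily by chance. This share is therefore not comparable with the 27.9% in MSA mice. In control mice 1571 genes (10.4%) passed, 861 higher (5.71%) and 710 lower (4.7%) in striatum, and 1386 (9.18%) passed with a log2 change of at least 1. Of the 952 genes called in MSA mice, 947 (99.5%) had the same sign in control mice, against 73.1% of all genes tested, and 791 (83.1%) were also called there, all in the same direction. Among genes higher in MSA striatum 428 of 488 (87.7%) were called in controls, and among lower ones 363 of 464 (78.2%). The 791 shared genes are 50.4% of those called in control mice. Across all genes the log2 changes of the genotypes correlated with r = 0.709, which describes genes that are not independent of each other.

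The sizes lay side by side as follows. Drd2 changed by 4.17 in MSA and 5.78 in control mice, Penk by 3.19 and 4.63, Adora2a by 3.93 and 5.18, and Chat by 2.79 and 5.11. Slc17a7 changed by -2.84 in MSA and -4.56 in control mice. Other named genes did not follow: Lrrc10b changed by 4.47 in MSA and 3.97 in control mice, and Onecut2 by 4.33 and 4.35. Oxtr changed by -3.39 in MSA and -1.75 in control mice, where it did not pass and the regions overlap. The shared projection neuron list had medians of 2.87 in MSA and 3.28 in control mice, cortical glutamatergic genes -2.47 and -4.44, and cholinergic genes 2.53 and 4.90. Without library 1 of MSA striatum the MSA values were -4.97 for Slc17a7, -4.0 for the cortical median, 3.10 for Chat and 2.79 for the cholinergic median, so the gap to the control values was smaller, most of all for the cortical genes. The cholinergic list summed to 22.4, 18.2 and 38.9 CPM in MSA cortex and to 6.98, 5.83 and 4.16 CPM in control cortex, and Drd2 in cortex library 3 of MSA mice stood at 28.7 CPM beside 4.61 to 6.86 CPM in control cortex. The difference between the regional changes of the genotypes was tested gene by gene: 0 of 15092 genes (0.0%) passed by edgeR, 409 (2.71%) had an unadjusted p under 0.05, and 1 passed by DESeq2. At that unadjusted p lay 5 of 7 cholinergic genes, 4 of 24 shared projection neuron genes and 2 of 17 cortical glutamatergic genes. A count of 0 after adjustment does not show that the genotypes share their regional differences in size.

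Of the 952 genes 5 had opposite signs, and none of the 5 was called in control mice. They were Cdk18, Tac2, Crybg1, Ppp1r17 and a transcript without a standard symbol, named here after their values were seen. Cdk18, a cyclin-dependent kinase gene expressed in oligodendrocytes, had 25.7, 26.2 and 21.9 CPM in MSA striatum, against 54.3, 43.1 and 68.2 CPM in MSA cortex (-1.15 ± 0.31, adjusted p = 0.0487). In controls it had 34.8 and 32.2 CPM in striatum, against 45.1, 35.4 and 17.3 CPM in cortex, where the libraries overlap. Tac2, the neurokinin B precursor, had 1.46, 0.32 and 0.675 CPM in MSA striatum, against 7.60, 9.54 and 8.84 CPM in MSA cortex, while the control striatum libraries had 14.4 and 1.15 CPM. Crybg1 and Ppp1r17 stayed under 5 CPM in all 11 libraries.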

How the data were processed

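Poly(A) RNA was sequenced by the study. The submitters' processing notes name the build mm10 and the tools STAR, HOMER and DESeq2; the sources used here give neither versions nor counting settings. Raw whole-number counts were deposited by the authors for 24940 genes, each with 1 RefSeq transcript, and a table of TPM of the same genes, used here only to set levels of different genes side by side. Coordinates are those of the deposited table.

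The 11 placebo libraries of striatum and cortex were fitted together with 1 coefficient per group. The filter was filterByExpr at a minimum count of 10, and the scaling TMM. The test was the 2-sided robust quasi-likelihood F test (edgeR 4.0.16, R 4.3.3), and the threshold an adjusted p (Benjamini-Hochberg) under 0.05. Values after ± are standard errors for log2 changes and SDs for TPM. The procedure was tested on simulated data. By size, the 8 higher and the 8 lower called genes of largest fold are named, where groups did not overlap and mean log2 CPM reached 2. Of the list members up to 4 of smallest p per list are named by rule, and 13 are always named; any other member is named as a member of its list. The 44 lists (611 genes, 1 absent from the table) and the comparison were chosen with earlier results of these data known. Lists are described by counts and medians, without a set test. Alternatives were RLE factors, library totals, DESeq2 1.42.0, no filter, the replicate number as a block, the groups compared alone, all 30 bulk libraries, each library left out and a log2 change of at least 1; leaving out MSA striatum library 1 with control cortex library 3 was chosen after seeing the data. The human transgene was not analysed here. Some genes named by the rule are not reported here.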

Additional observations from a re-analysis of the deposited data

How the results depend on the processing

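The direction of the MSA comparison held under the alternatives run, while its counts moved. Of the 104 genes named and called in MSA mice, all 104 remained called with RLE factors, library totals and DESeq2, 67 remained without any 1 of the 11 libraries, and none turned its sign. Calls were lost for 5 with the replicate block, 5 with all 30 bulk libraries, 5 of 102 with the groups compared alone, 4 with no filter and 1 without both doubted libraries. Beside the 67, the other 37 lost the call in at least 1 such fit, with adjusted p of 0.0501 to 0.217: 5, 32 and 30 of them without MSA striatum libraries 1, 2 and 3, 28, 30 and 18 without MSA cortex libraries 1, 2 and 3, 8 and 9 without control striatum libraries 1 and 2, and 5 and 3 without control cortex libraries 2 and 3. They include Ak7, Clic6, Bcas1, Cck, Grm4, Pou3f1, Prkcd and Slc6a13, lost in 7 or 8 fits each. The 488 higher and 464 lower genes became 815 and 794 by DESeq2, and 1436 and 1472 without MSA striatum library 1 and control cortex library 3, where 942 of the 952 were shared. MSA striatum library 3 and MSA cortex library 3, which also stood apart for some lists, stayed in that fit. Leaving out 1 library gave 248 to 899 higher and 171 to 934 lower genes, with 1833 calls in all without control cortex library 3, 427 and 432 without MSA striatum libraries 3 and 2, and 491, 482 and 619 without MSA cortex libraries 1, 2 and 3. The 6 MSA libraries alone gave 698 higher and 717 lower genes. In control mice the 861 higher and 710 lower genes became 391 and 308 with the 5 control libraries alone, 1355 and 1450 without both doubted libraries, and 294 to 1152 and 113 to 1074 with 1 library left out; DESeq2 gave 1235 higher and 1256 lower genes. DESeq2 called 1 gene in the interaction between region and genotype. The share of MSA calls with the same sign in controls was 98.6% by DESeq2, 98.5% without both doubted libraries and 98.6 to 100.0% with 1 left out. The change of Csf1r ranged from -0.06 to 0.31 with 1 library left out; that of Gfap was -0.05 with the replicate block, -0.47 without both doubted libraries, and -0.49 to 0.31 with 1 left out. The cause was not tested.

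The replicate numbers are shared between the regions, but the deviations of same-numbered libraries correlated at -0.106, 0.021 and 0.049 in MSA mice and -0.022 and 0.204 in control mice, so the numbers were not taken to pair them; no label settles it. With the replicate block 577 genes were higher and 622 lower in MSA mice, 639 and 715 in control mice, and 0 in the interaction. At a depth of 5.87 to 11.27 M counts, genes under about 1 CPM rest on few reads.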
